A study of Mus musculus with 12 samples.

Results

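ER-associated degradation is the route by which misfolded proteins leave the endoplasmic reticulum (ER) and reach the proteasome. It was followed here through 10 genes: Edem1, Edem3, Syvn1, Sel1l, Herpud1, Derl1, Derl2, Derl3, Selenos and Vcp. They were taken from a list of gene symbols, and every probe set that the platform annotation gives 1 of these symbols was used, which made 25 probe sets of the 45101 on the array, and 10 genes of the 18193 that at least 1 single-symbol probe set names. All 25 passed the filter on low values, a mean over the 12 arrays at or above the median of all probe sets, which left 22519 probe sets tested. Each gene had 2 or more of the 25 except Derl3, which had 1.

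In this pathway a misfolded glycoprotein is first trimmed and recognised in the ER lumen, then passed through a membrane ubiquitin ligase complex, pulled into the cytosol by an ATPase and degraded. The mannosidase-like EDEM proteins act in the lumen. The ligase HRD1 (Syvn1), its adaptor SEL1L, HERP (Herpud1) and the derlins sit in the membrane, and selenoprotein S (Selenos) ties the complex to the ATPase p97 (Vcp). ATF6 is a membrane-bound transcription factor of the ER stress response, whose released cytosolic part enters the nucleus and acts at ER stress response elements. In heart muscle, as in other cells that make membrane and secreted proteins, the pathway is known as one outlet of that response.

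The study hybridised total RNA from the left ventricle of 12 male C57BL/6 mice, about 30 weeks old, to Affymetrix mouse 430 2.0 arrays, with 1 heart per array and 3 mice in each of 4 groups. TG mice carried an ATF6-MER transgene, ATF6 joined to a tamoxifen-binding domain of a mutated estrogen receptor, and NTG mice were their littermates without it. TG tamoxifen and TG vehicle mice were transgenic and received tamoxifen or vehicle, and NTG tamoxifen and NTG vehicle mice received the same without the transgene. The promoter that drives the transgene, the dose of tamoxifen and the number of founder lines could not be learned from the sources used here. The vehicle controls of the TG mice carry the transgene as well, so TG tamoxifen against TG vehicle compares drug with no drug in its presence.

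Several arrays have to be named before the results. The array labelled NTG tamoxifen 1 read 17.72 for Esr1, which marks the receptor part of the transgene, on the log2(intensity + 16) scale used throughout. The 6 TG arrays lay between 16.66 and 18.25, and the other 5 NTG arrays at 10.88 or below. For Hspa5, the ER chaperone BiP, that array read 18.05, where NTG tamoxifen 2 and 3 read 15.65 and 15.49 and the TG tamoxifen arrays 18.37 to 18.47. Atf6 itself read 12.67 there, against 13.41 and 13.47, and TG tamoxifen 12.00 to 12.16. The comparisons between groups are therefore given with all 12 arrays, as labelled, and without that array. The treatment field of TG vehicle 3 says tamoxifen while its title says vehicle, and TG tamoxifen 1 has an age of 40 weeks. On all 25 probe sets TG vehicle 3 lay below every TG tamoxifen array.

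Median deposited intensity ran from 648 to 834 over the arrays, and Spearman correlations between arrays from 0.836 to 0.916. The beta-actin control's 3' over 5' ratio, which rises as RNA degrades, was highest on the NTG vehicle arrays (2.12 to 2.43) and lowest on the TG vehicle arrays (1.32 to 1.68). It lay between them with tamoxifen, at 1.75 to 1.88 on TG arrays and 1.78 to 1.97 on NTG arrays. The ratio thus did not overlap between drug and vehicle in TG or in NTG mice, nor between the vehicle groups. In those comparisons, and in the difference between the tamoxifen effects, it cannot be separated from the groups. All 10 cardiomyocyte markers, which define the main cell of the labelled tissue, passed the filter, and they summed to 2468810 intensity units or more on every array. The labels call the mice separate biological replicates, and with 3 arrays a group the precision of each value is limited by that number.

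The comparison of TG tamoxifen with TG vehicle asks what follows drug in mice that carry the transgene. In it, 9 of the 10 genes rose, none fell, and Derl2 did not pass the test. Derl3 rose the most, by 15.7 times, followed by Syvn1 (4.64 times), Sel1l (4.28), Vcp (3.26), Edem1 (2.84), Edem3 (2.60), Herpud1 (2.31), Selenos (2.17) and Derl1 (1.67), each by the probe set with the highest mean. These folds and all changes below are on the log2(intensity + 16) scale, which understates the change of low genes. By probe set, 19 of 25 rose, none fell and 6 did not pass. Among all probe sets tested 18.3% changed and 8.54% rose, and among the 11166 genes so represented 21.2% changed, 8.76% rose and 12.4% fell. Median change was 1.38 over the 25 probe sets and -0.03 over all probe sets tested. Without the array labelled NTG tamoxifen 1, which is in neither group and enters through the joint normalisation and the shared estimate of the spread, 24 of 25 rose, including 10 of 10 genes by their highest probe set. The background was then 22.6% changed and 10.9% higher among probe sets, and 25.7% changed among genes.

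**Figure D1:**
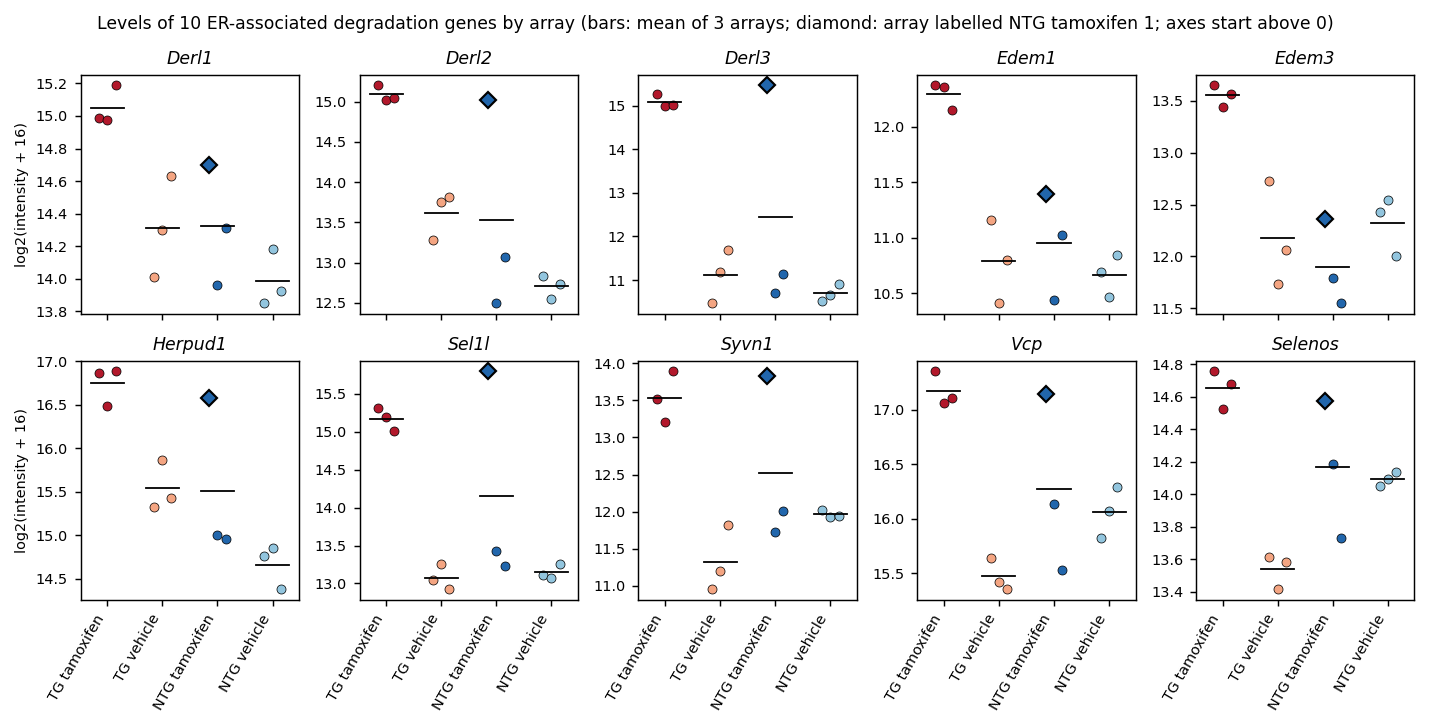
Level of each gene on every array, as log2(intensity + 16) of its probe set with the highest mean. Points are arrays, bars are means of 3 arrays, and the diamond is the array labelled NTG tamoxifen 1; in each of the 10 panels the 3 TG tamoxifen arrays lie above the 3 TG vehicle arrays, and the axes start above 0.

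Edem1 and Edem3 encode the lumenal factors that extract glycoproteins with trimmed mannose chains from the folding cycle. Edem1 (1451218_at, chromosome 6) read 12.38, 12.36 and 12.15 on the TG tamoxifen arrays, 11.16, 10.41 and 10.79 on TG vehicle, 11.40, 10.44 and 11.03 on NTG tamoxifen and 10.69, 10.46 and 10.85 on NTG vehicle. The TG tamoxifen arrays stood above all other 9, and the remaining groups overlapped. Its change in TG mice was 1.51 ± 0.26 (SE, n = 3 per group; adjusted p = 0.00457). A second Edem1 probe set (1424065_at) rose by 2.28 ± 0.66 (adjusted p = 0.0342).

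Edem3 (1460401_at, chromosome 1) read 13.65, 13.45 and 13.57 on TG tamoxifen, 12.73, 11.73 and 12.06 on TG vehicle, 12.36, 11.79 and 11.55 on NTG tamoxifen and 12.43, 12.54 and 12.00 on NTG vehicle. Again the TG tamoxifen arrays were above the other 9, including the array labelled NTG tamoxifen 1, which for most of the genes was not the case. The change in TG mice was 1.38 ± 0.28 (adjusted p = 0.00832). The other Edem3 probe set (1459133_at) read 10.81, 11.06 and 11.15 on TG tamoxifen and 10.25, 10.14 and 10.33 on TG vehicle, a rise of 0.76 ± 0.19 (adjusted p = 0.0174). Its NTG arrays, at 10.66 to 11.11, overlapped TG tamoxifen, so there the TG vehicle arrays were the low ones.

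Syvn1 encodes the membrane ubiquitin ligase HRD1 at the centre of the complex. Its probe set 1443609_s_at (chromosome 19) read 13.52, 13.20 and 13.89 on TG tamoxifen, 10.96, 11.20 and 11.81 on TG vehicle, 13.83, 11.72 and 12.01 on NTG tamoxifen and 12.02, 11.92 and 11.94 on NTG vehicle. TG tamoxifen and the array labelled NTG tamoxifen 1 were high, and the TG vehicle arrays lay below all NTG vehicle arrays. The change in TG mice was 2.22 ± 0.45 (adjusted p = 0.00859), and 1428070_at rose by 1.78 ± 0.48 (adjusted p = 0.0252).

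Sel1l encodes the adaptor that binds HRD1 and brings substrates to it, and it had 5 probe sets, the most of the 10 genes. Its brightest on average (1436774_at, chromosome 12) read 15.32, 15.20 and 15.01 on TG tamoxifen, 13.05, 13.25 and 12.93 on TG vehicle, 15.80, 13.43 and 13.23 on NTG tamoxifen and 13.11, 13.07 and 13.26 on NTG vehicle. The array labelled NTG tamoxifen 1 was the highest of the 12, and the 8 arrays outside it and TG tamoxifen fell within 12.93 to 13.43. The change in TG mice was 2.10 ± 0.51 (adjusted p = 0.0172). All 5 probe sets rose, the others by 1.70 ± 0.44 to 2.43 ± 0.59 (adjusted p from 0.0177 to 0.0404).

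Herpud1 encodes HERP, a membrane protein with a ubiquitin-like domain that holds the ligase complex together. Its probe set 1448185_at (chromosome 8) read 16.87, 16.48 and 16.88 on TG tamoxifen, 15.33, 15.86 and 15.43 on TG vehicle, 16.58, 15.00 and 14.96 on NTG tamoxifen and 14.75, 14.85 and 14.38 on NTG vehicle. Here the TG vehicle arrays lay in between, below TG tamoxifen and above NTG vehicle. It rose in TG mice by 1.21 ± 0.37 (adjusted p = 0.0436), and by 1.21 ± 0.20 (adjusted p = 0.00256) without the array labelled NTG tamoxifen 1. The second probe set (1435626_a_at) read 1.22 ± 0.51, which did not pass (adjusted p = 0.118), and passed without that array (adjusted p = 0.0156).

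The derlins are membrane proteins through which substrates are thought to cross into the cytosol. Derl3 (1453677_a_at, chromosome 10) read 15.27, 14.99 and 15.01 on TG tamoxifen, 10.48, 11.18 and 11.68 on TG vehicle, 15.47, 10.71 and 11.13 on NTG tamoxifen and 10.51, 10.66 and 10.92 on NTG vehicle. The array labelled NTG tamoxifen 1 was high with the 3 TG tamoxifen arrays and the other 8 were low, with no array between 11.68 and 14.99. The change in TG mice was 3.98 ± 0.93 (adjusted p = 0.0147), and 3.98 ± 0.28 (adjusted p = 2.16e-05) without that array.

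Derl2 (1448438_at, chromosome 11) read 15.20, 15.02 and 15.05 on TG tamoxifen, 13.28, 13.75 and 13.81 on TG vehicle, 15.03, 12.50 and 13.06 on NTG tamoxifen and 12.84, 12.55 and 12.74 on NTG vehicle. The groups did not overlap between TG tamoxifen and TG vehicle, yet the difference of 1.48 ± 0.48 did not pass (adjusted p = 0.0540), and it passed without the array labelled NTG tamoxifen 1 (1.48 ± 0.21, adjusted p = 9.34e-04). The other Derl2 probe set (1435101_at) did the same, at 0.95 ± 0.35 (adjusted p = 0.0773) and 0.95 ± 0.18 (adjusted p = 0.00449).

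Derl1 (1437723_s_at, chromosome 15) moved least of the 10 genes. It read 14.99, 14.98 and 15.19 on TG tamoxifen, 14.01, 14.30 and 14.63 on TG vehicle, 14.70, 13.96 and 14.31 on NTG tamoxifen and 13.85, 14.18 and 13.92 on NTG vehicle. The rise in TG mice was 0.74 ± 0.23 (adjusted p = 0.0425). The other 3 Derl1 probe sets read 0.63 to 0.77 and did not pass (adjusted p from 0.157 to 0.219); without the array labelled NTG tamoxifen 1, 1415693_at and 1423082_at passed (adjusted p = 0.0233 and 0.0257) and 1433563_s_at did not (0.0504).

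Selenos encodes selenoprotein S, the membrane anchor that recruits p97 to the derlins. Its probe set 1448704_s_at (chromosome 7) read 14.76, 14.53 and 14.68 on TG tamoxifen, 13.61, 13.42 and 13.58 on TG vehicle, 14.58, 14.19 and 13.73 on NTG tamoxifen and 14.05, 14.10 and 14.14 on NTG vehicle. TG tamoxifen was above TG vehicle on every array, and TG vehicle was the lowest of the 4 groups. The change in TG mice was 1.12 ± 0.21 (adjusted p = 0.00599), and the other 2 probe sets rose by 1.22 ± 0.25 and 1.24 ± 0.25 (adjusted p = 0.00832 and 0.00772).

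Vcp encodes p97, the ATPase that extracts substrates from the membrane and has many other tasks in the cell. The probe set 1423030_at (chromosome 4) read 17.35, 17.06 and 17.11 on TG tamoxifen, 15.63, 15.42 and 15.36 on TG vehicle, 17.14, 16.14 and 15.53 on NTG tamoxifen and 15.83, 16.07 and 16.30 on NTG vehicle. As for Selenos, the TG vehicle arrays were below the NTG vehicle arrays. The change in TG mice was 1.71 ± 0.33 (adjusted p = 0.00669). The second probe set (1457588_at) rose by 1.29 ± 0.23 (adjusted p = 0.00473).

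**Figure D2:**
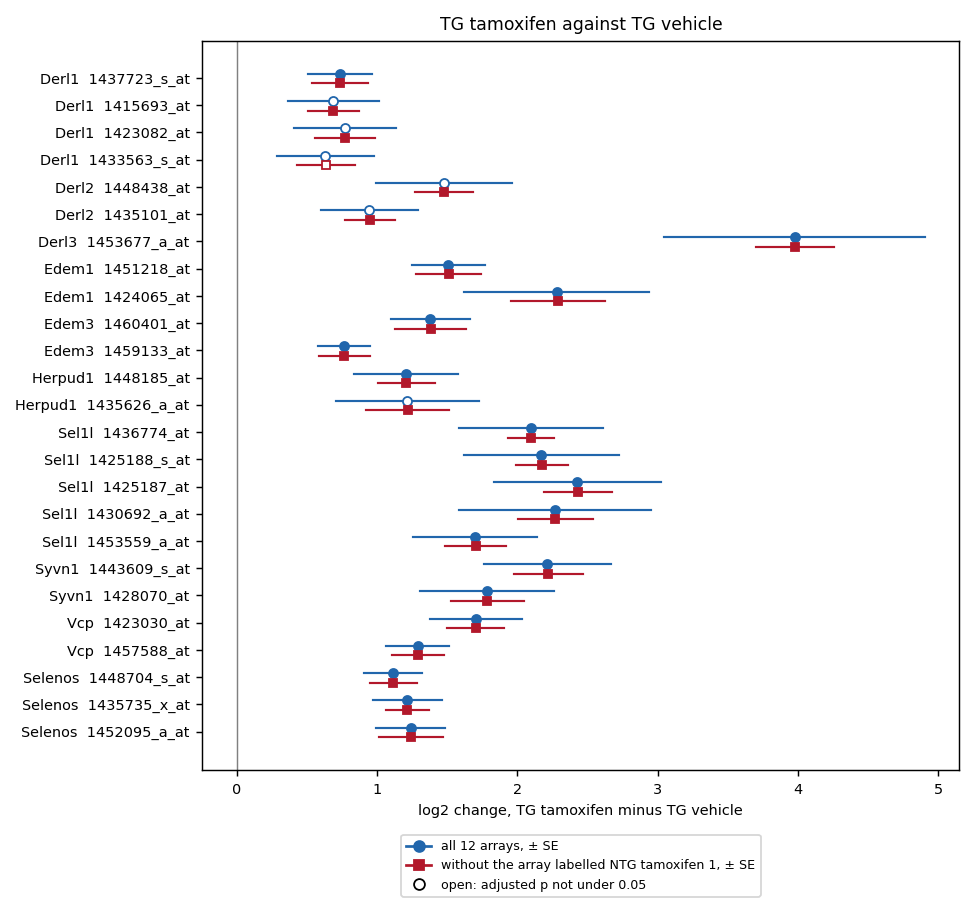
Log2 change of each of the 25 probe sets, TG tamoxifen minus TG vehicle, with its SE, from all 12 arrays (circles) and without the array labelled NTG tamoxifen 1 (squares); open symbols did not pass an adjusted p of 0.05. All 25 points lie to the right of 0, from 0.63 for Derl1 to 3.98 for Derl3.

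On all 25 probe sets the 3 TG tamoxifen arrays lay above the 3 TG vehicle arrays, which held for 19.9% of all probe sets tested. The number of probe sets called depended on single arrays: it was 9, 11 or 12 without TG tamoxifen 1, 2 or 3, and 10 without TG vehicle 2. It was 0 without both arrays with conflicting labels, 0 when TG vehicle 3 was moved into the TG tamoxifen group and 0 with the actin ratio as a covariate, with 19, 14 and 18 at an unadjusted p under 0.05, while the median change stayed between 1.11 and 1.34. In these 3 fits 3.32% of all probe sets (747), 2 probe sets and 0 probe sets passed, so few or none passed anywhere. The share of all probe sets at an unadjusted p under 0.05 was not taken for these 3 fits. On all 12 arrays as labelled it was 7697 of 22519, beside 22 of the 25. The actin ratio did not overlap between TG tamoxifen and TG vehicle, so the fit with it cannot separate it from drug. In the fits without TG tamoxifen 1, 2 or 3 or TG vehicle 2, 8.39%, 10.6%, 11.4% and 10.3% of all probe sets passed. With the array labelled NTG tamoxifen 1 also left out, a setting chosen after the data were seen, it was 21 without both arrays with conflicting labels, 18 with the actin ratio and 0 with TG vehicle 3 moved, against 11.1%, 8.34% and again 2 of all probe sets.

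Marker lists of other cell types moved between the same 2 groups. Macrophage and leukocyte markers summed to 93935 to 143581 intensity units in TG tamoxifen and 52538 to 104646 in TG vehicle, with 2 of 7 tested genes higher. The array labelled NTG tamoxifen 1 was at 45776 on that list, next to the lowest array (45617). Plasma cell markers summed to 3886 to 5508 in TG tamoxifen and 6569 to 8797 in TG vehicle, with 0 of 3 tested genes higher and 1 lower. Of the 3, Ighm read 11.10, 10.41 and 9.64 on TG tamoxifen against 11.69, 11.66 and 11.71 on TG vehicle. Mzb1 and Sdc1 overlapped between these groups. Cardiomyocyte markers summed to 2468810 to 2555380 and 2858860 to 2890390 (2 of 10 lower), and endothelial markers to 28769 to 31712 and 37754 to 48735 (3 of 6 lower). Among the other lists fibroblast markers had 1 of 7 higher, adipocyte markers 1 of 1 lower, and atrial (4) and smooth muscle (4) markers had no call. The part of cell mixture in the changes was not tested, and in whole tissue fewer cells of a type and less RNA per cell cannot be told apart.

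Promoter sequences, from RefSeq on GRCm38.p6, were examined because most of the 10 genes rose with tamoxifen in TG mice. The TG vehicle mice carry the ATF6 fusion as well. The sequences run from 250 bases before to 50 after the annotated start, and 9 of the 10 genes had one, Derl2 with 2. Derl1 had none in the table used. Motifs known from the ER stress response were searched on both strands. The ER stress response element (ERSE) was CCAAT, 9 bases of any kind, then CCACG, and ERSE-II was ATTGG, 1 base, then CCACG. The unfolded protein response element (UPRE) was TGACGTGG or TGACGTGA, and the CARE, an amino acid response element bound by ATF4, was TTGCATCA. The stretches that hold a match are shown with the motif in capitals and 20 bases on each side.
Derl3 ERSE, read on the minus strand, chr10:75893222-75893280, plus strand shown: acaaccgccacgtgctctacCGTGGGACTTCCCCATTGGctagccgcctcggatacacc
Syvn1 ERSE, chr19:6046512-6046570, plus strand: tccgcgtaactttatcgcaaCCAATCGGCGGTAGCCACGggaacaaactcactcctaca
Herpud1 ERSE-II, chr8:94386357-94386407, plus strand: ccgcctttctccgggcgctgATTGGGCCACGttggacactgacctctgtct
Herpud1 CARE, chr8:94386297-94386344, plus strand: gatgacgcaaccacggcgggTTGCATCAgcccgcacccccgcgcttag
Vcp UPRE, chr4:43000594-43000641, minus strand: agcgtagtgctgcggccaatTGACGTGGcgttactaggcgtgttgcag

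ERSE was found in Derl3, from -156 to -138 bases relative to the start, and in Syvn1, from -44 to -26, and in 0.119% of all 32851 promoters. Their changes in TG mice were 3.98 and 2.22, and that of Sel1l, which had no match, was within 1 SE of the latter. ERSE-II was found in Herpud1 (0.0365% of all promoters), whose change was 1.21, and the CARE in the same promoter (0.895%). The TGACGTGG form of UPRE was found in Vcp (0.676%), and the TGACGTGA form in none of the 9 genes (0.441%). Sel1l, Edem1, Edem3, Derl2 and Selenos had no match to these longer motifs in this window. The CCACG part of ERSE alone overlaps ERSE and ERSE-II and is common, at 32.8% of all promoters and 9 of the 10 searched here, and CCAAT alone was at 37.4% and 9 of 10. A match is a description of the letters and does not show that a factor binds.

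**Figure D3:**
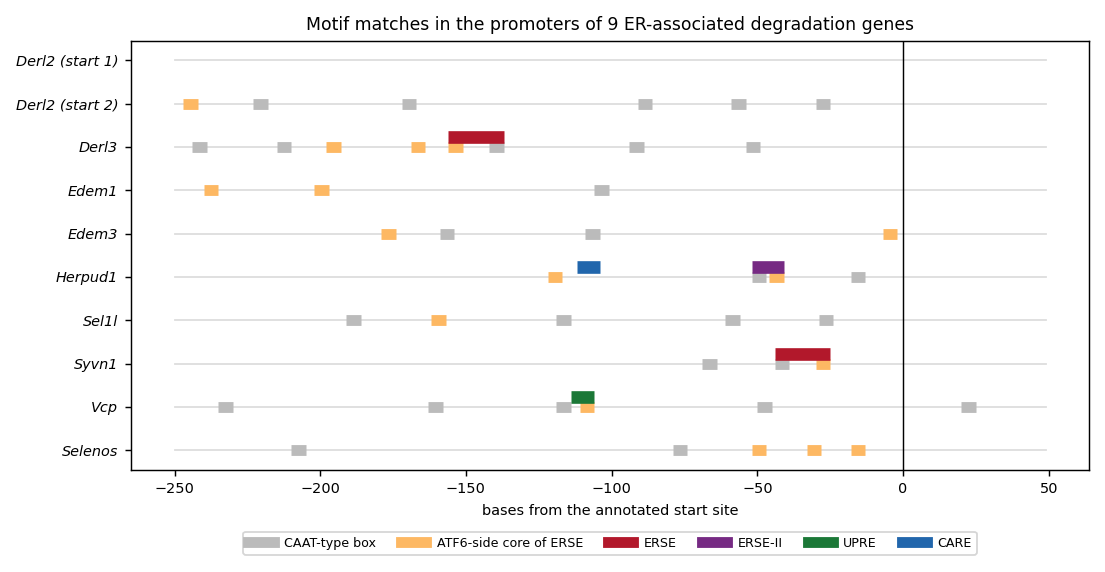
Position of motif matches in the 10 promoters of 9 genes, in bases from the annotated start (vertical line at 0), with ERSE, ERSE-II, UPRE and CARE drawn above the line and their shorter parts (the CAAT-type box and the CCACG-type core) on it. ERSE appears in Derl3 and Syvn1, ERSE-II and CARE in Herpud1, and UPRE in Vcp.

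TG vehicle against NTG vehicle asks whether the transgene moves the genes without drug. No gene rose by the test on all 12 arrays, and 1 of the 25 probe sets fell, Edem3 1459133_at by 0.72 on the log2 scale (SE 0.19, adjusted p = 0.0450), against 6.12% of all probe sets changed. Without the array labelled NTG tamoxifen 1, 7 rose and the same Edem3 probe set fell, against 9.72%. Those 7 were Derl2 1448438_at (0.91 ± 0.21, adjusted p = 0.0260), both Herpud1 probe sets (0.88 ± 0.20, adjusted p = 0.0284, and 1.24 ± 0.30, adjusted p = 0.0308), Derl1 1423082_at (0.93 ± 0.21, adjusted p = 0.0271) and 3 of the 5 of Sel1l. On 15 of the 25 probe sets the 3 TG vehicle arrays did not overlap the 3 NTG vehicle arrays, 10 of them higher and 5 lower, against 32.5% of all probe sets in either direction. The 5 lower were Edem3 1459133_at, Syvn1 1443609_s_at (-0.64 ± 0.45), both Vcp probe sets (-0.59 ± 0.33 and -0.60 ± 0.23) and Selenos 1448704_s_at (-0.56 ± 0.21). The last 4 did not pass the test with or without the array labelled NTG tamoxifen 1. The count of 1 became 0 without any of 8 other arrays, the 3 TG tamoxifen, the 3 TG vehicle, NTG vehicle 2 or NTG vehicle 3, with 3 to 8 at an unadjusted p under 0.05, and 0 with both arrays with conflicting labels and NTG tamoxifen 1 left out, with 12. In those 8 fits 0.595% to 7.37% of all probe sets passed, and 0.488% in the last. The share of all probe sets at an unadjusted p under 0.05 was not taken for the fits that gave 0. On all 12 arrays it was 5613 of 22519, beside 8 of the 25. Without NTG tamoxifen 2 the count stayed at 1, but that call was a rise and not the Edem3 fall. The vehicle groups did not overlap in the actin ratio (TG 1.32 to 1.68, NTG 2.12 to 2.43), so genotype and that ratio cannot be separated here. When the ratio was a covariate and NTG tamoxifen 1 was dropped, 0 of the 25 and 0 of all probe sets passed. Of the 25, 3 were at an unadjusted p under 0.05. Their median change was -0.01, against 0.33 in the fit that dropped only that array.

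**Figure D4:**
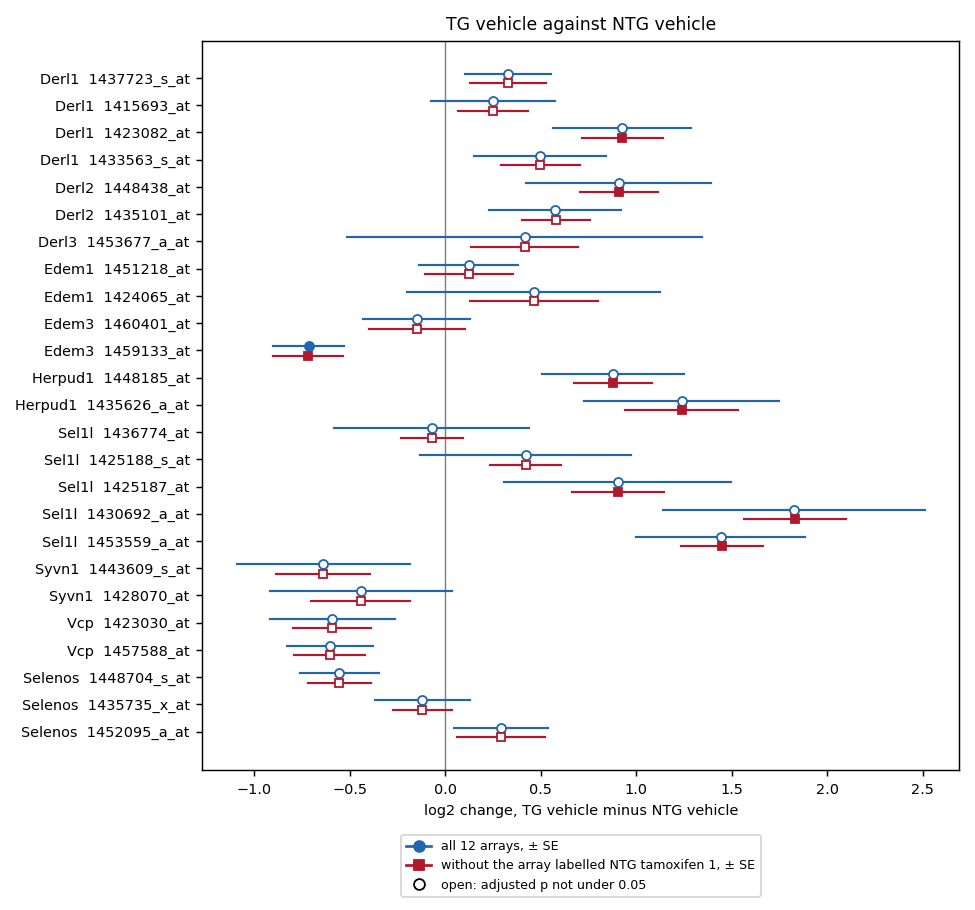
Log2 change of each of the 25 probe sets, TG vehicle minus NTG vehicle, with its SE, from all 12 arrays (circles) and without the array labelled NTG tamoxifen 1 (squares); open symbols did not pass an adjusted p of 0.05. Points lie on both sides of 0, with Sel1l 1430692_a_at highest at 1.83 and Edem3 1459133_at lowest at -0.72.

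The probe sets of Sel1l gave different readings in this comparison. The probe set with the highest mean, 1436774_at, read -0.07 ± 0.51, whereas 1430692_a_at read 1.83 ± 0.69 and 1453559_a_at 1.44 ± 0.44 (1.83 ± 0.26 and 1.45 ± 0.21, adjusted p = 0.00727 and 0.00755, without the array labelled NTG tamoxifen 1). Probe set 1430692_a_at read 12.10, 11.83 and 12.17 on TG vehicle, 10.69, 10.20 and 9.73 on NTG vehicle, 13.87, 10.31 and 10.93 on NTG tamoxifen and 14.55, 14.24 and 14.11 on TG tamoxifen. So TG vehicle lay between the low NTG arrays and the high TG tamoxifen arrays on this probe set, and level with NTG vehicle on the other. Within each array, 1430692_a_at minus 1436774_at was -1.04 ± 0.34 (SD, n = 3) in TG vehicle and -2.94 ± 0.56 in NTG vehicle. It was -0.96 to -0.77 on TG tamoxifen and -3.12 to -1.92 on NTG tamoxifen, with the array labelled NTG tamoxifen 1 at -1.92. This pair of probe sets was chosen after its values were seen, so the difference between them was not put to a test, and which transcripts each detects was not tested.

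Tamoxifen without the transgene was examined in NTG tamoxifen against NTG vehicle. No probe set of the 10 genes passed limma's test, against 3.89% of all probe sets changed, nor did any without the array labelled NTG tamoxifen 1, against 2.26%. At an unadjusted p under 0.05 were 5 of 25, against 5218 of 22519 over all probe sets, and without that array 4 of 25, against 4833 of 22519. The median change of the 25 probe sets was 0.47 with that array and 0.08 without it. Derl3 went from 1.74 ± 0.93 to 0.22 ± 0.31, Sel1l from 1.01 ± 0.51 to 0.18 ± 0.18, Herpud1 from 0.85 ± 0.37 to 0.32 ± 0.23 and Derl2 from 0.82 ± 0.48 to 0.08 ± 0.23. The array labelled NTG tamoxifen 1 was above the 8 other arrays outside TG tamoxifen on 23 of the 25 probe sets, against 16.2% of all probe sets, and the other 2 were both Edem3. It exceeded the mean of NTG tamoxifen 2 and 3 by a median of 1.51, against -0.002 over all probe sets tested.

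TG tamoxifen against NTG tamoxifen compares genotypes under drug and shares its arrays with the comparisons above. Of the 25 probe sets 15 rose and none fell, against 37.5% of all probe sets changed in either direction (4148 of 22519 higher). By gene, 7 of the 10 rose, against 37.9% of genes changed in either direction (2033 of 11166 higher). Sel1l (1.02 ± 0.51, adjusted p = 0.136), Syvn1 (1.02 ± 0.45, adjusted p = 0.0981) and Selenos (0.49 ± 0.21, adjusted p = 0.0837) did not pass. Edem3 changed by 1.65 ± 0.28 (adjusted p = 0.00125) and Edem1 by 1.34 ± 0.26 (adjusted p = 0.00251). Without the array labelled NTG tamoxifen 1, 23 of 25 rose, against 40.5% changed in either direction (4516 of 22519 higher). Among the 23 were Derl3 by 4.17 ± 0.31 in place of 2.65 ± 0.93, Sel1l by 1.84 ± 0.18, Syvn1 by 1.68 ± 0.27 and Selenos by 0.70 ± 0.18. The 2 that did not pass were Edem3 1459133_at (0.10 ± 0.20) and Vcp 1457588_at (0.18 ± 0.21). The count was 8, 9, 6 and 5 without TG tamoxifen 1, TG tamoxifen 3, NTG tamoxifen 2 and NTG tamoxifen 3, when 29.0%, 29.9%, 31.4% and 28.2% of all probe sets passed in either direction. In these fits the share among the 25 was near or below that share in either direction. All of these calls among the 25 were higher, and the share of all probe sets that rose was not taken for these fits.

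The test of whether drug acted differently in TG and NTG mice is the difference between the 2 tamoxifen effects. It was passed by 2 of the 25 probe sets, against 10.6% of all probe sets: Edem3 1460401_at, by 1.80 ± 0.40 (adjusted p = 0.0207), and Selenos 1448704_s_at, by 1.05 ± 0.29 (adjusted p = 0.0432). Without the array labelled NTG tamoxifen 1, 18 of 25 passed, all with a positive difference, against 18.4% of all probe sets in either direction (2237 of 22519 positive). They included Derl3 (3.76 ± 0.42, adjusted p = 9.20e-04), Syvn1 (2.32 ± 0.37), Vcp (1.93 ± 0.31), Sel1l (1.91 ± 0.24, adjusted p = 0.00160), Edem1 (1.44 ± 0.34) and Derl2 (1.40 ± 0.31). By their highest probe sets Derl1 (0.58 ± 0.30, adjusted p = 0.192) and Herpud1 (0.89 ± 0.31, adjusted p = 0.0681) did not pass. For all 12 arrays the count of 2 became 0 without TG tamoxifen 1 or NTG vehicle 2 (7 and 8 at an unadjusted p under 0.05), when 3.87% and 2.92% of all probe sets passed. It became 1 without any of TG tamoxifen 2 and 3, TG vehicle 2 and 3, NTG tamoxifen 2 and 3, or NTG vehicle 1 and 3, against 4.63% to 9.67%. With the actin ratio as a covariate and NTG tamoxifen 1 left out, 0 passed, with 16 at an unadjusted p under 0.05, and 10 of all probe sets passed. The share of all probe sets at an unadjusted p under 0.05 was not taken for these fits. On all 12 arrays it was 6735 of 22519, beside 8 of the 25. The actin ratio cannot be separated from drug in either genotype.

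Ordered by group mean, TG tamoxifen was highest for all 10 genes by their highest probe set. The lowest group was NTG vehicle for Derl1, Derl2, Derl3, Edem1 and Herpud1, TG vehicle for Syvn1, Sel1l, Selenos and Vcp, and NTG tamoxifen for Edem3. The highest and lowest groups were the same for all 10 without the array labelled NTG tamoxifen 1. Between TG vehicle and NTG vehicle, neighbours in several of these orders, none of the 10 passed the test on all arrays. For Derl3 the deposited intensities, before any step taken here, were 42495, 33375 and 34624 on TG tamoxifen, 1438, 2336 and 3142 on TG vehicle, 45194, 1722 and 2381 on NTG tamoxifen and 1427, 1605 and 1964 on NTG vehicle.

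A wider list of 72 genes of the same pathway was read from 1 probe set each, the one with the highest mean. Of these, 68 were read from a single-symbol probe set and 66 passed the filter; Fbxo2 and Atxn3 were below it, and the rest of the list was not analysed here. In TG tamoxifen against TG vehicle 7 rose, 4 fell and 55 did not pass, against 21.2% of all genes changed, and the median change was -0.002 against -0.07 over all genes tested. Without the array labelled NTG tamoxifen 1, 11 rose and 5 fell, against 25.7% of all genes changed. In both fits the share of the wider list that passed was near or below that of all genes. Both lists were drawn up by gene name with earlier results of these data known.

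By role, the wider list divided as follows in TG tamoxifen against TG vehicle. Of 11 lectins, mannosidases and glycan-handling enzymes, Uggt1, the folding sensor that adds glucose back to glycoproteins, rose by 1.69 ± 0.53 (adjusted p = 0.0473). In the same class Erlec1, a lectin of the ligase complex, fell by 1.01 (SE 0.24, adjusted p = 0.0151) and Fbxo6, a cytosolic sugar-binding ligase subunit, fell by 1.02 (SE 0.23, adjusted p = 0.0124). None of 23 membrane ubiquitin ligases and their partners passed. At an unadjusted p under 0.05 were 5 of them, against 4180 of 11166 genes. Without the array labelled NTG tamoxifen 1 Selenok, Rnf5 and Herpud2 rose and Stub1 fell. Among 6 ubiquitin-conjugating enzymes 2 rose, Ube2k by 0.81 ± 0.19 (adjusted p = 0.0161) and Ube2d3 by 1.11 ± 0.33 (adjusted p = 0.0383). Of 12 cofactors and inhibitors of p97, Plaa, a ubiquitin-binding partner, rose by 1.19 ± 0.23 (adjusted p = 0.00703).

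Deubiquitinases, shuttles and cytosolic handlers went both ways, with 3 of 12 higher and 2 lower. Yod1, a deubiquitinase that works with p97, rose by 1.22 ± 0.30 (adjusted p = 0.0187), the proteasome shuttle Rad23b by 0.84 ± 0.22 (adjusted p = 0.0230) and Usp25 by 0.72 ± 0.23 (adjusted p = 0.0497). The chaperone pair Bag6 and Sgta, which hold extracted proteins in the cytosol, fell by 0.89 (SE 0.26, adjusted p = 0.0364) and 0.70 (SE 0.19, adjusted p = 0.0261). Neither of 2 intramembrane proteases passed. Ube2d3, Uggt1 and Usp25 rank below the first 8 by adjusted p, and these 3 and the genes called without the array labelled NTG tamoxifen 1 are named after their values were seen. The 11 calls in the wider list became 2, 5 and 4 without TG tamoxifen 1, 2 and 3, 4 and 5 without TG vehicle 2 and 3, and 7 without NTG vehicle 2. In these fits 8.39% to 15.0% of all probe sets passed.

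**Figure D5:**
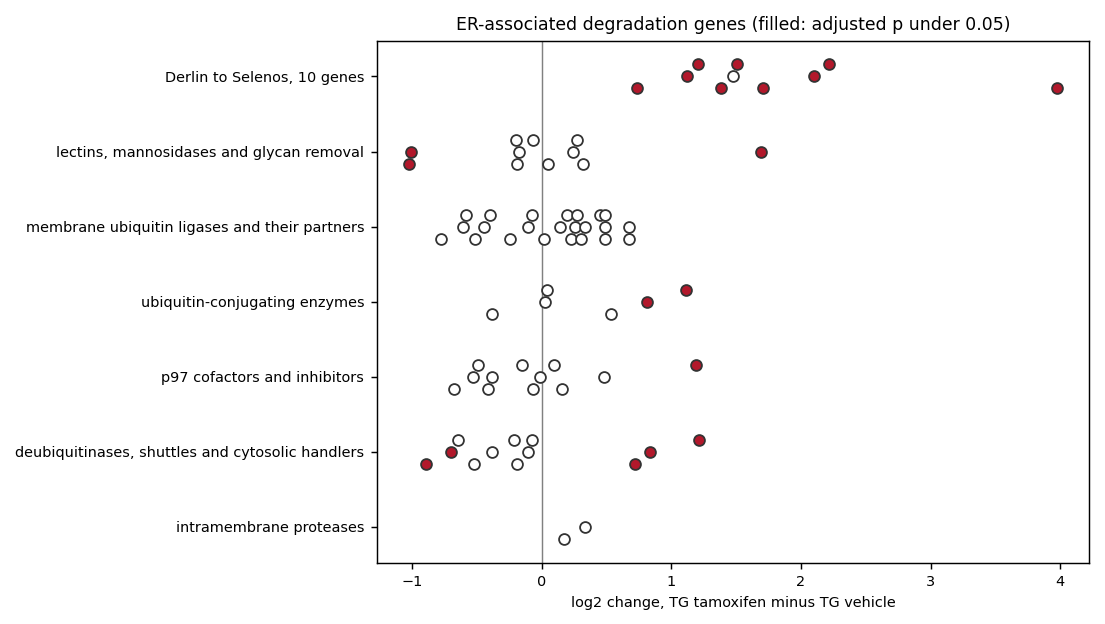
Log2 change, TG tamoxifen minus TG vehicle, of the 10 genes (top line) and of the 66 tested genes of the wider list by role, 1 point per gene; filled points passed an adjusted p of 0.05. The 10 genes lie between 0.74 and 3.98, and the wider list is spread on both sides of 0 from -1.02 to 1.69.

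The wider list was also read in the other comparisons. In NTG tamoxifen against NTG vehicle none rose and 2 fell, Ubxn2a by 1.75 (SE 0.30, adjusted p = 0.0212) and Rnf170 by 1.10 (SE 0.27, adjusted p = 0.0480), against 3.82% of genes changed. In the fit without the array labelled NTG tamoxifen 1 Ubxn2a still fell, Rnf170 did not pass (adjusted p = 0.0617) and Jkamp fell by 0.78 (SE 0.17, adjusted p = 0.0451), against 2.19%. The count of 2 was 0 without NTG tamoxifen 3 or any NTG vehicle array, with 12 to 15 at an unadjusted p under 0.05, and 1 without any TG tamoxifen array, TG vehicle 2 or TG vehicle 3. In TG vehicle against NTG vehicle Ube2d3 rose by 1.33 ± 0.33 (adjusted p = 0.0390), while Yod1 fell by 1.55 (SE 0.30, adjusted p = 0.0185) and Jkamp by 0.80 (SE 0.18, adjusted p = 0.0321), against 4.44%. These 3 passed in the same direction in the fit without the array labelled NTG tamoxifen 1, where Rnf5 also rose and Stub1 and Usp13 also fell, against 7.54%. Leaving out NTG vehicle 2, NTG vehicle 3 or TG vehicle 3 took the count of 3 to 0, with 8 to 13 at an unadjusted p under 0.05, and leaving out TG tamoxifen 2 or NTG vehicle 1 took it to 1. In the fits that gave 0, 2 to 61 of all probe sets passed for drug in NTG mice and 0.595% to 0.995% between the vehicle groups. On all 12 arrays 19 of the 66 were at an unadjusted p under 0.05 for drug in NTG mice, against 2508 of 11166 genes. Between the vehicle groups 13 were, against 2446 of 11166. These shares of all genes were not taken for the fits that gave 0 or 1. In TG tamoxifen against NTG tamoxifen 13 rose and 11 fell, 24 of 66 against 37.9% of all genes, a share near that of all genes. The 8 with the smallest adjusted p were Bag6 (-1.72 ± 0.26), Ube4b (-1.01 ± 0.18), Stub1 (-1.15 ± 0.21), Ube2k (1.02 ± 0.19), Insig2 (1.17 ± 0.23), Sgta (-0.97 ± 0.19), Ubxn6 (-1.08 ± 0.21) and Faf1 (-1.04 ± 0.21), and each passed in the same direction without the array labelled NTG tamoxifen 1, where 16 rose and 11 fell against 41.2%. In the difference between the tamoxifen effects 3 were higher and 5 lower, 8 of 66 against 11.5% of genes, again near the share of all genes. With the array labelled NTG tamoxifen 1 left out, 10 were higher and 6 lower, against 20.1%. The count of 8 was 1 without TG tamoxifen 1 or NTG vehicle 2, 2 without TG tamoxifen 3, TG vehicle 2, NTG tamoxifen 3 or NTG vehicle 3, 3 without TG tamoxifen 2, 4 without NTG vehicle 1 and 5 without TG vehicle 3. In these fits 2.92% to 6.21% of all probe sets passed.

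Some genes outside the list tracked the 10 across the 12 arrays. Likeness was the Euclidean distance between levels after each gene's NTG vehicle mean was taken off, over the 11166 genes represented, and the 3 nearest were named. For Derl3 they were Psat1 (distance 1.11), Creld2 (1.38) and Sdf2l1 (1.63), for Syvn1 Calr (0.915), Map3k3 and Prmt2, and for Sel1l Tbcb (0.762), Nhp2 and Uggt1, a gene of the wider list. Ostc was the nearest to both Herpud1 (0.818), followed by Nfil3 and Heatr5b, and Derl2 (0.936), followed by Cyb5b and Nppb. For Edem1 they were Ell2 (0.771), Mak16 and Ltv1, for Edem3 Atg3 (0.763), Bmt2 and Atp13a3, and for Vcp Calu (0.756), Ngdn and Bola2. For Derl1 they were Ywhah (0.461), Bub3 and Sri, and for Selenos Pum3 (0.643), Rala and 1700025G04Rik. These distances describe the 12 arrays, including the array labelled NTG tamoxifen 1. Without it, 16 of the 30 genes named as nearest were the same, and the first was the same for 4 of the 10, Derl3, Syvn1, Herpud1 and Edem1.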

How the data were processed

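RNA from the left ventricle of 12 mice, 1 array each, was measured on Affymetrix mouse 430 2.0 arrays. The authors deposited 1 table of linear intensities, from 1.02 to 537040, whose 2% trimmed mean is 2500.02 on every array, as scaling each array to one target gives. How signals were summarised from probes is not given in the sources used here, and depth does not apply. Here 16 was added, log2 taken and the arrays quantile normalised over all 45101 probe sets. The 64 control probe sets were then dropped, and probe sets with a mean at or above the 50th percentile (22519) were kept. limma 3.58.1 in R 4.3.3 fitted 4 group means over the 12 arrays (8 residual degrees of freedom), with two-sided moderated tests and Benjamini-Hochberg adjustment over all 22519 and a threshold of 0.05. SE is that of the fit.

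Groups came from the sample titles. Symbols came from the platform annotation: 34945 probe sets have 1 symbol, 932 several and 9160 none, and a gene was represented by its single-symbol probe set with the highest mean. Of the 25 probe sets, 6 are of the _s_at or _x_at kind and can detect related transcripts: 2 of Derl1, 2 of Selenos, 1 of Sel1l and 1 of Syvn1. Chromosomes and promoters are from RefSeq (GRCm38.p6). Named were all 10 genes, Esr1, Atf6 and Hspa5, per comparison up to 8 called genes of the wider list by adjusted p, and the 3 nearest genes. The members and lists were chosen with earlier results of these data known. The 5 comparisons share arrays. Alternatives were another pseudocount (1, 64), scaling, filter, spread, labels, a covariate and each array left out. The code was checked on simulated data for TG tamoxifen against TG vehicle, with 200 of 22519 probe sets changed. Of those changed by 1 on the log2 scale 24% passed, and of those changed by 2, 96%. In the data 18.3% of probe sets passed, so these shares hold for the simulated setting and not for the data. A change near 1 that did not pass is not shown to be absent.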

Additional observations from a re-analysis of the deposited data

Results flagged for a closer look

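Of the 25 probe sets of the 10 genes 2, and 8 genes of the wider list, passed the test of the difference between the tamoxifen effect in TG and in NTG mice on all 12 arrays (limma, adjusted p under 0.05), and are given because 2 groups differed under the same contrast. The share was near that of all features, 10.6% of probe sets and 11.5% of genes, and all 10 passed in the same direction without the array labelled NTG tamoxifen 1. Edem3 1460401_at differed by 1.80 ± 0.40 (adjusted p = 0.0207) and Selenos 1448704_s_at by 1.05 ± 0.29 (0.0432), both higher with drug in TG mice. In NTG mice, drug against vehicle read -0.42 ± 0.28 and 0.07 ± 0.21 for them. Of the wider list, Plaa differed by 1.57 ± 0.33 (adjusted p = 0.0183), Ubxn2a by 1.85 ± 0.42 (0.0239) and Yod1 by 1.81 ± 0.43 (0.0256), with the change under drug more positive in TG than in NTG mice. Ubxn2a is a p97 cofactor, and its NTG tamoxifen arrays read 12.69, 13.36 and 12.33, below all NTG vehicle arrays (14.38 to 14.65). Its TG tamoxifen arrays read 14.19, 14.30 and 14.39, within the range of TG vehicle (14.84, 13.85 and 13.90). Yod1 read 10.73, 10.37 and 10.65 on TG tamoxifen, above TG vehicle (9.40, 10.01 and 8.69) and below every NTG vehicle array (10.78 to 11.01). With the change under drug more negative in TG mice, Fbxo6 differed by -1.42 ± 0.33 (adjusted p = 0.0238), Bag6 by -1.52 ± 0.37 (0.0279), Sgta by -1.05 ± 0.27 (0.0326), the ubiquitin chain elongation factor Ube4b by -0.99 ± 0.25 (0.0334) and the p97 cofactor Ubxn6 by -1.10 ± 0.30 (0.0386). Bag6 read 11.59, 11.79 and 11.76 on TG tamoxifen, below the other 9 arrays.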

How the results depend on the processing

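Counts are of the 25 probe sets past the threshold unless the wider list is named, and the cause of each change was not tested. In TG tamoxifen against TG vehicle the 10 genes kept their direction in all 299 values under the alternatives, 213 of them on the same side of the threshold, 75 losing the call and 11 gaining it. The count of 19 was 8 with no filter (where 3.1% of all probe sets passed), 10 of 10 tested with 1 probe set per gene (24.8%) and 9 to 24 with 1 array left out (8.39% to 22.6%). It was 0 without both arrays with conflicting labels, with TG vehicle 3 grouped as TG tamoxifen or with the actin ratio as a covariate, when 3.32%, 2 and 0 of all probe sets passed. Of the 4 settings chosen after the data were seen, it was 4 on TG arrays alone without both arrays with conflicting labels (25 at an unadjusted p under 0.05) and 0 without NTG tamoxifen 1 and with TG vehicle 3 put in TG tamoxifen (22). Of all probe sets 163 and 2 passed there.

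In TG tamoxifen against NTG tamoxifen 212 of 289 values stayed on their side, 62 lost the call and 15 gained it. The count of 15 was 6 with no filter, 7 with 1 probe set per gene, 5 on only the arrays compared, 23 with array weights, 7 without both arrays with conflicting labels, 5 with TG vehicle 3 grouped as TG tamoxifen, 23 with the actin ratio and NTG tamoxifen 1 left out, and 5 to 23 with 1 array left out.

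In the difference between the tamoxifen effects the count of 2 was 6 with median centring (12.7%), 8 with array weights (18.9%) and 4 with an intensity trend (14.4%). It was 4 of 21 tested with the 75th percentile filter (24.9%) and 4 of 10 tested with 1 probe set per gene (14.3%). Without NTG tamoxifen 1 and both arrays with conflicting labels it was 14 (9.47%), and with 1 array left out 0 to 18 (2.92% to 18.4%). It was 0 with no filter (8 at an unadjusted p under 0.05), without both arrays with conflicting labels (8), with TG vehicle 3 grouped as TG tamoxifen (1, or 10 with NTG tamoxifen 1 also left out) and with the actin ratio (0, or 16 with NTG tamoxifen 1 also left out). In these fits 0 to 16 of all probe sets passed. Only the arrays compared could not be fitted for the difference between effects. Herpud1 turned sign there, to -0.029, with TG vehicle 3 grouped as TG tamoxifen.

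In TG vehicle against NTG vehicle the count of 1 was 2 on only the arrays compared (2.28%) or with an intensity trend (8.61%), 5 with array weights (12.4%) and 0 to 8 with 1 array left out (0.595% to 9.72%). It was 0 with no filter, 1 probe set per gene, either treatment of the conflicting labels, the replicate block, the actin ratio and the added settings that could be fitted, with 0 to 12 at an unadjusted p under 0.05. In the fits that gave 0 here, 0% to 3.89% of all probe sets passed. Both calls on only the arrays compared were higher, as was the 1 call with the 75th percentile filter or without NTG tamoxifen 2. The Edem3 fall was not among these calls. In NTG tamoxifen against NTG vehicle the count of 0 was 1 of 21 tested with the 75th percentile filter (11.8%). It was 0 in each fit with 1 array left out, with 2 to 13 at an unadjusted p under 0.05, when 2 probe sets to 6.85% of all passed.

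Signs turned for values that passed in neither fit. In NTG tamoxifen against NTG vehicle these were, with the actin ratio as a covariate, Edem3 (0.18), and with NTG tamoxifen 1 also left out Derl2 (-0.36), Derl3 (-0.16) and Syvn1 (-0.19). Without NTG tamoxifen 1, alone or with the conflicting labels treated either way, they were Selenos (-0.13), Syvn1 (-0.10) and Vcp (-0.23). Selenos read -0.15 with median centring and -0.041 with array weights, and Vcp -0.0098 with array weights. With 1 array left out, Selenos ran up to 0.29, Syvn1 to 0.96 and Vcp to 0.57. In TG vehicle against NTG vehicle the actin ratio gave Edem3 1.21, Sel1l 0.032, Selenos 0.021 and Vcp 0.25, and with NTG tamoxifen 1 left out Edem3 1.13, Vcp 0.070, Derl2 -0.037 and Derl3 -0.40. With 1 array left out, Edem1 there ran from -0.063 (without TG vehicle 1) to 0.31 and Edem3 from -0.43 to 0.071 (without TG vehicle 2), while Sel1l 0.0022 to 0.0024 in the 5 fits that left out or regrouped TG vehicle 3 (0.0023 without both arrays with conflicting labels).

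The 11 calls in the wider list were 1 with no filter, 2 to 16 with 1 array left out, 5 without NTG tamoxifen 1 and both arrays with conflicting labels and 4 with the actin ratio and NTG tamoxifen 1 left out. They were 0 without both arrays with conflicting labels (15 at an unadjusted p under 0.05), with TG vehicle 3 grouped as TG tamoxifen (9, or 12 with NTG tamoxifen 1 left out), with the actin ratio (12) and on TG arrays alone without both arrays with conflicting labels (13). In the fits with 0 calls, 0 to 747 of all probe sets passed, and 3.1% with no filter.

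Median centring moved the median of all probe sets for the NTG drug comparison from 0.02 to -0.12, for the comparison of the vehicle groups from -0.01 to -0.12 and for the difference between effects from -0.06 to 0.17. Arrays with the same replicate number correlated at -0.098 to 0.120 in their deviations from the group means (18 pairs, 1 over 0.1), and other pairs at -0.126 to 0.162. No pairing by number was seen, though these values cannot exclude one. With the replicate block the counts were 17, 0, 0, 13 and 2 for drug in TG mice, drug in NTG mice, genotype under vehicle, genotype under drug and the difference between effects. In the same order 16.3%, 0.822%, 3.89%, 35.7% and 8.18% of all probe sets passed.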
